A study of Mus with 21 samples.

Results

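Wounds that had received a GelMA hydrogel of pH 6.4 loaded with aFGF, the group named 6.4/aFGF, were compared with control wounds that had received no hydrogel scaffold. The comparison took every library of these 2 groups, 3 of 6.4/aFGF and 3 of control, which are 6 of the 21 RNA-seq libraries of the series, and all 18806 genes of the count files. All mice were wild-type C57BL/6 females, 8 weeks old at purchase, with a splinted full-thickness wound of 8 mm in diameter on both sides of the back. The hydrogel, a light-cured methacrylated gelatin carrying 200 ng of the growth factor, was attached right after wounding, all wounds were covered with a Tegaderm dressing, and tissue was taken for sequencing on Day 4. Each group held 3 mice, and the labels do not say which wound or how many wounds of a mouse entered a library. The remaining 15 libraries, 3 in each of 5 groups, came from wounds with aFGF at pH 7.4 or 8.4 or with bFGF at pH 6.4, 7.4 or 8.4, and serve here for comparison with 6.4/aFGF, for the scaling of levels and for the spread in fits of more than 6 libraries. The 6.4/aFGF and control wounds differed in the hydrogel, its pH and the growth factor together, and no unloaded hydrogel was among the groups, so the contributions of these 3 cannot be told apart.

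aFGF, also called FGF1, binds the receptors FGFR1 to FGFR4 together with heparan sulfate and signals mainly through the Ras and ERK cascade, which switches on feedback inhibitors such as the Sprouty and Dusp genes and transcription factors of the Etv family. A skin wound at this stage holds neutrophils and macrophages, new vessels and fibroblasts that build granulation tissue, and a tongue of keratinocytes that migrates over it, expressing stress keratins, integrins and laminins. Migrating keratinocytes also make ligands of the EGF receptor, and type I interferon genes are often switched on by nucleic acids and microbes in damaged tissue.

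Total counts were 34869372 to 37057933 in the control libraries and 36815083 to 37817833 in the 6.4/aFGF libraries. The tissue carried its defining markers, with at least 10653 counts of each of 5 keratins of the wound epidermis and at least 309502 counts of each of 3 fibroblast collagen genes in each of the 6 libraries. Control replicate 2 stood apart from the rest of its group, with a root mean square log2 difference of 0.836 from the other 2 control libraries, against 0.501 and 0.55 for control replicates 1 and 3. In 6.4/aFGF these differences were 0.458, 0.452 and 0.687 for replicates 1, 2 and 3. Results that rest on control replicate 2 are therefore given with and without it.

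No gene passed the test in 6.4/aFGF against control. Of 15108 genes with enough counts, 0 (0%) were called by edgeR's quasi-likelihood test, which needed a p under 0.05 after Benjamini-Hochberg adjustment and a log2 fold change over 0.58 up or down, and the smallest adjusted p was 0.512. At an unadjusted p under 0.05 there were 1210 genes (8.01%), 661 higher (4.38%) and 549 lower (3.63%) in 6.4/aFGF, where 755.4 would be expected if none differed. All 3 libraries of 6.4/aFGF lay above all 3 control libraries in 1093 genes (7.23%) and below them in 1085 (7.18%). Without control replicate 2 the shares at an unadjusted p under 0.05 were 12.5% higher and 8.69% lower, and 21.5% of genes lay above and 21.5% below the remaining 2 controls. DESeq2, the other count test, called 106 genes, 54 higher (0.299%) and 52 lower (0.288%). An edgeR fit of the 20 libraries other than control replicate 2, a setting chosen after the data had been seen, called 300 genes higher (1.87%) and 148 lower (0.921%). The 2 sets shared 25 genes that were higher, 46.3% of the DESeq2 set and 8.33% of the other, and 12 that were lower, 23.1% and 8.11%. The genes below are therefore given by their level in each library and by whether the groups overlapped, and none of the differences held in the test of the 6 libraries.

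Levels are given in CPM, which are counts scaled by TMM to a common depth over the 21 libraries, for replicates 1, 2 and 3 in this order, and fold changes are log2 values of 6.4/aFGF over control with their standard error from edgeR. They compare a gene with itself, since CPM does not correct for gene length. Genes named only as members of a small count, without values, were named after their values had been seen. Some counts of list members at an unadjusted p under 0.05 are given without a share. The shares of all genes were 4.38% higher and 3.63% lower, and 12.5% and 8.69% without control replicate 2. With 3 libraries against 3, an exact permutation test of a single gene cannot give a two-sided p below 0.1. In bulk tissue a lower level can come from fewer cells of a type or from less RNA per cell, and these cannot be told apart.

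The genes with the smallest p among those higher in 6.4/aFGF were led by Apold1, an early response gene of endothelial cells. Apold1 measured 14.4, 15.8 and 12.4 CPM in the control libraries and 40.0, 33.8 and 35.7 CPM in 6.4/aFGF, a difference of 1.38 ± 0.14 (edgeR adjusted p = 0.512). Fkbp5, a co-chaperone of the glucocorticoid receptor, measured 68.0, 85.8 and 77.4 CPM in control and 264, 204 and 198 CPM in 6.4/aFGF, a log2 fold change of 1.54 ± 0.17. The 12 genes of each direction were chosen for a small p and for no overlap between the groups. Their separation is therefore no result of its own. Areg, which encodes the EGF receptor ligand amphiregulin, stood at 8.00, 7.57 and 6.34 CPM in control and at 29.6, 17.3 and 31.3 CPM in 6.4/aFGF, 3.62-fold higher in the fit, with the lowest 6.4/aFGF library still above every control. Has3, a hyaluronan synthase of the epidermis, went from 5.33, 9.26 and 6.04 CPM to 25.2, 19.1 and 22.8 CPM between the groups (1.72 ± 0.26). Ccn2, the matricellular protein CTGF, was at 43.4, 71.3 and 54.3 CPM in control and 168, 141 and 133 CPM in 6.4/aFGF (1.40 ± 0.21). In Ccn2 and Has3, control replicate 2 was the highest control and still lay below each 6.4/aFGF library.

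Tns4, a tensin of epithelial focal adhesions, had 21.6, 29.6 and 24.3 CPM in control and 54.0, 45.0 and 59.4 CPM in 6.4/aFGF (1.09 ± 0.18). Aqp3, the water and glycerol channel of basal keratinocytes, had 51.9, 72.7 and 61.0 CPM and 133, 111 and 155 CPM (1.13 ± 0.19). The set also held Irs2, an adaptor of the insulin receptor (0.89 ± 0.12), Per1, a repressor of the circadian clock (0.77 ± 0.10), Fibin, a secreted protein (1.12 ± 0.13), and Ly6m, a member of the Ly6 family (1.32 ± 0.20). Alkal2, a ligand of the receptor tyrosine kinase ALK, was the scarcest of the set and had the largest fitted fold change, at 0.792, 0.518 and 0.836 CPM in control and 5.62, 3.66 and 2.47 CPM in 6.4/aFGF (2.46 ± 0.41). The adjusted p of these 12 genes was 0.512 to 0.607 by edgeR, DESeq2 called all 12, and the 20-library fit called 4 of them, Fkbp5, Has3, Ccn2 and Tns4.

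Of the 12 corresponding genes that were lower, Prss35, a member of the serine protease family, differed most. Its level was 19.7, 15.9 and 27.7 CPM in control and 2.05, 3.85 and 4.36 CPM in 6.4/aFGF, a log2 fold change of -2.60 ± 0.36. Col7a1, the collagen of the anchoring fibrils that fix the epidermis to the dermis, had 78.1, 86.4 and 90.5 CPM in control and 40.4, 50.5 and 42.5 CPM in 6.4/aFGF (-0.92 ± 0.13). As for the genes above, no overlap between the groups was a condition of the choice. Interferon-inducible genes made up much of the rest. Ifit1bl1, of the Ifit family, measured 13.0, 16.0 and 10.8 CPM in control and 3.27, 3.95 and 4.61 CPM in 6.4/aFGF (-1.73 ± 0.23), and Ifit2 measured 81.5, 91.2 and 88.0 CPM and 21.1, 29.5 and 41.7 CPM (-1.48 ± 0.26). How reads shared by near-identical members of such families were counted is not given in the sources used here. Cmpk2, a mitochondrial nucleotide kinase, was at 32.7, 48.5 and 37.5 CPM and 15.3, 16.6 and 17.7 CPM (-1.24 ± 0.18). The cytosolic antibody receptor Trim21 (-1.15 ± 0.18), the helicase Ddx60 (-0.97 ± 0.15) and Pml, which forms nuclear bodies (-0.56 ± 0.10), belonged to this set. So were the DNA sensor Tlr9 (-0.94 ± 0.17), the antimicrobial ribonuclease Rnase6 (-1.17 ± 0.21) and Megf6, a protein with EGF-like repeats (-1.57 ± 0.26). The adjusted p of these 12 genes was 0.593 to 0.607 by edgeR, DESeq2 called 11 of them, all but Pml, whose log2 fold change stayed under the limit, and the 20-library fit called Prss35 alone.

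**Figure D1:**
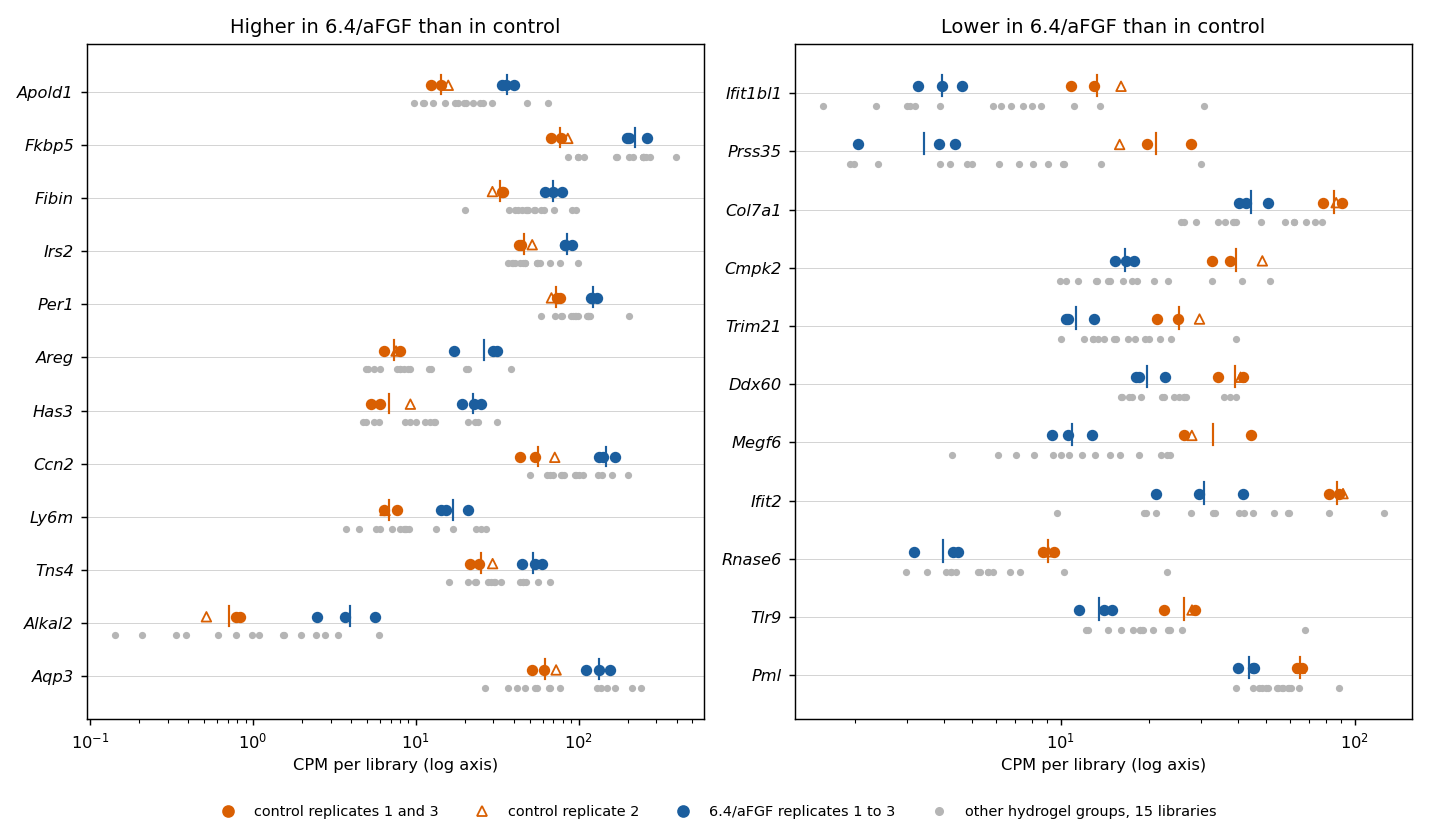
Level in CPM (log axis) of 12 genes that were higher and 11 that were lower among those with the smallest p, with 1 point per library for control (orange, replicate 2 as an open triangle), 6.4/aFGF (blue) and the 15 libraries of the other hydrogel groups (grey), and a short vertical line at each group's mean. The blue and orange points do not overlap in any of the 23 genes, which is how they were chosen, while the grey points spread across both in most of them.

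In the list of EGF receptor ligands, which also holds the receptor Egfr, 8 of 11 genes tested were higher in 6.4/aFGF, against 50.1% of all genes. The median log2 difference of these 11 genes was 0.64, against 0.0007 over all genes. The unadjusted p was under 0.05 in 5 of them, against 4.38% of all genes, and in none in the other direction: Areg, Epgn, Egfr, Tgfa and Ereg. Epgn, the ligand epigen, had 6.73, 13.5 and 4.61 CPM in control and 25.1, 23.5 and 39.4 CPM in 6.4/aFGF (1.84 ± 0.45). The receptor Egfr itself had 73.3, 87.8 and 59.8 CPM and 118, 111 and 109 CPM (0.64 ± 0.16). The groups did not overlap in any of the 5 genes with an unadjusted p under 0.05. Hbegf, the heparin-binding ligand, measured 9.24, 35.2 and 11.1 CPM in control and 42.8, 23.5 and 68.9 CPM in 6.4/aFGF. Its groups overlapped through control replicate 2, and without that library the median of the list was 1.52, with 7 of 11 genes higher at an unadjusted p under 0.05 against 12.5% of all genes.

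The genes of the migrating wound edge were mostly higher as well. Of 26 keratinocyte genes tested, 21 were higher in 6.4/aFGF, 8 of them at an unadjusted p under 0.05, against 4.38% of all genes, and none in the other direction, with a median of 0.40. Without control replicate 2 there were 12 of 26 at this level, against 12.5% of all genes, and the median was 0.48. Itga3, an integrin chain that binds the laminin of the basement membrane, had 31.9, 31.0 and 21.0 CPM in control and 69.9, 49.7 and 62.8 CPM in 6.4/aFGF (1.14 ± 0.21). Itga6, of the hemidesmosome integrin, had 126, 86.7 and 104 CPM and 159, 158 and 143 CPM (0.56 ± 0.16). Neither gene overlapped between the groups. Of the stress keratins, Krt6a measured 705, 881 and 699 CPM in control and 939, 1196 and 1198 CPM in 6.4/aFGF (0.56 ± 0.18), and Krt16 measured 436, 606 and 442 CPM and 554, 807 and 785 CPM (0.55 ± 0.22). Krt6a was separated between the groups and Krt16 was not, through control replicate 2. Krt17 ran from 281 to 549.8 CPM in control and from 355 to 578 CPM in 6.4/aFGF, fully overlapping. The basal keratins differed by less, with 0.37 ± 0.20 for Krt5 and 0.31 ± 0.18 for Krt14.

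The cornified envelope, the outer barrier made by differentiated keratinocytes, was lower in part of its genes and higher in others. Of 39 genes tested, 24 were lower and 15 higher, with 7 lower and 5 higher at an unadjusted p under 0.05, against 3.63% and 4.38% of all genes. The 5 were Lypd3, Abca12, Tgm3, Cers3 and Sprr1b. Ivl, the envelope protein involucrin, had 19.6, 18.3 and 30.9 CPM in control and 4.37, 11.0 and 8.71 CPM in 6.4/aFGF (-1.49 ± 0.39), and Lce1b, a late envelope protein, had 23.4, 33.8 and 32.3 CPM and 11.1, 11.3 and 19.7 CPM (-1.07 ± 0.29). Flg, the filaggrin precursor, measured 42.5, 80.8 and 50.0 CPM and 25.9, 37.4 and 31.3 CPM (-0.86 ± 0.28). The groups did not overlap in these 3 genes, but they did in Lor, which encodes loricrin (215, 299 and 354 against 96.9, 110.4 and 233 CPM), and in the suprabasal keratins Krt1 (-0.73 ± 0.35) and Krt10 (-0.80 ± 0.65). Among the genes that were higher was Lypd3, a surface protein of differentiating and migrating keratinocytes, at 56.0, 73.0 and 55.7 CPM in control and 104, 97.7 and 135 CPM in 6.4/aFGF (0.89 ± 0.19). The list's median was -0.18 with all 6 libraries and 0.01 without control replicate 2. Without that library 9 genes were higher and 4 lower at an unadjusted p under 0.05, against 12.5% and 8.69% of all genes.

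The FGF system was compared next because the hydrogel carried aFGF as a protein. Fgf1, the mouse gene of aFGF, measured 8.02, 4.55 and 10.7 CPM in control and 8.47, 7.33 and 15.4 CPM in 6.4/aFGF (0.45 ± 0.42), and Fgf2, the gene of bFGF, measured 4.43, 5.21 and 5.50 CPM and 5.65, 3.32 and 6.83 CPM. The groups overlapped in both genes. Fgfr1, the main FGF receptor of dermal cells, had 245, 222 and 285 CPM in control and 293, 275 and 245 CPM in 6.4/aFGF (0.13 ± 0.14). Fgfr2, whose epithelial form serves keratinocytes, had 50.2, 16.3 and 33.1 CPM and 27.8, 11.5 and 13.4 CPM (-0.90 ± 0.50), with replicate 1 of 6.4/aFGF inside the control range. Fgfr3 stood between 14.0 and 20.1 CPM in control and between 14.7 and 19.1 CPM in 6.4/aFGF, and Fgfr4 had at most 2.78 CPM in control and 3.36 CPM in 6.4/aFGF (-0.56 ± 0.74). Over the 27 ligands, receptors and related genes tested, 11 were higher and 16 lower with a median of -0.03, and 1 gene, Fgf11, had an unadjusted p under 0.05 in the lower direction (3 higher and 5 lower without control replicate 2).

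Of 22 target genes of FGF and ERK signalling, 16 were higher and 6 lower, with a median of 0.33. At an unadjusted p under 0.05 were 4 higher (Etv4, Hmga2, Myc and Phlda1) and 2 lower (Etv5 and Dusp4), against 4.38% and 3.63% of all genes. Without control replicate 2 there were 13 higher and 3 lower, against 12.5% and 8.69% of all genes, and the median was 0.52. Hmga2, a chromatin protein of growing tissue, had 2.48, 2.65 and 1.32 CPM in control and 9.49, 10.2 and 4.30 CPM in 6.4/aFGF (1.91 ± 0.43). Etv4 had 7.49, 8.11 and 6.82 CPM in control and 11.9, 11.5 and 11.6 CPM in 6.4/aFGF (0.66 ± 0.15), while its relative Etv5 was lower, at 35.4, 34.1 and 31.1 CPM and 25.2, 21.0 and 27.8 CPM (-0.43 ± 0.14). The groups were apart in these 3 genes and in both directions. Among the feedback inhibitors, Spry4 had 7.44, 11.3 and 8.04 CPM and 13.7, 11.0 and 10.2 CPM (0.40 ± 0.23), Dusp6 had 53.9, 106 and 64.7 CPM and 99.1, 99.2 and 81.4 CPM (0.33 ± 0.27), and Spry2 had 16.3, 25.7 and 26.7 CPM and 20.7, 21.4 and 43.6 CPM. The groups overlapped in all 3 inhibitors, and the log2 difference of Spry2, 0.34 ± 0.36, was -0.12 without replicate 3 of 6.4/aFGF. Of 9 proton-sensing receptors and channels tested none had an unadjusted p under 0.05 (1 higher and 2 lower of 10 without control replicate 2), and of 40 genes of acid and base transport 1 was higher, the bicarbonate transporter Slc4a7, and 2 were lower, the proton pump subunits Atp6v0a1 and Atp6v0d2 (6 and 5 without that library).

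**Figure D2:**
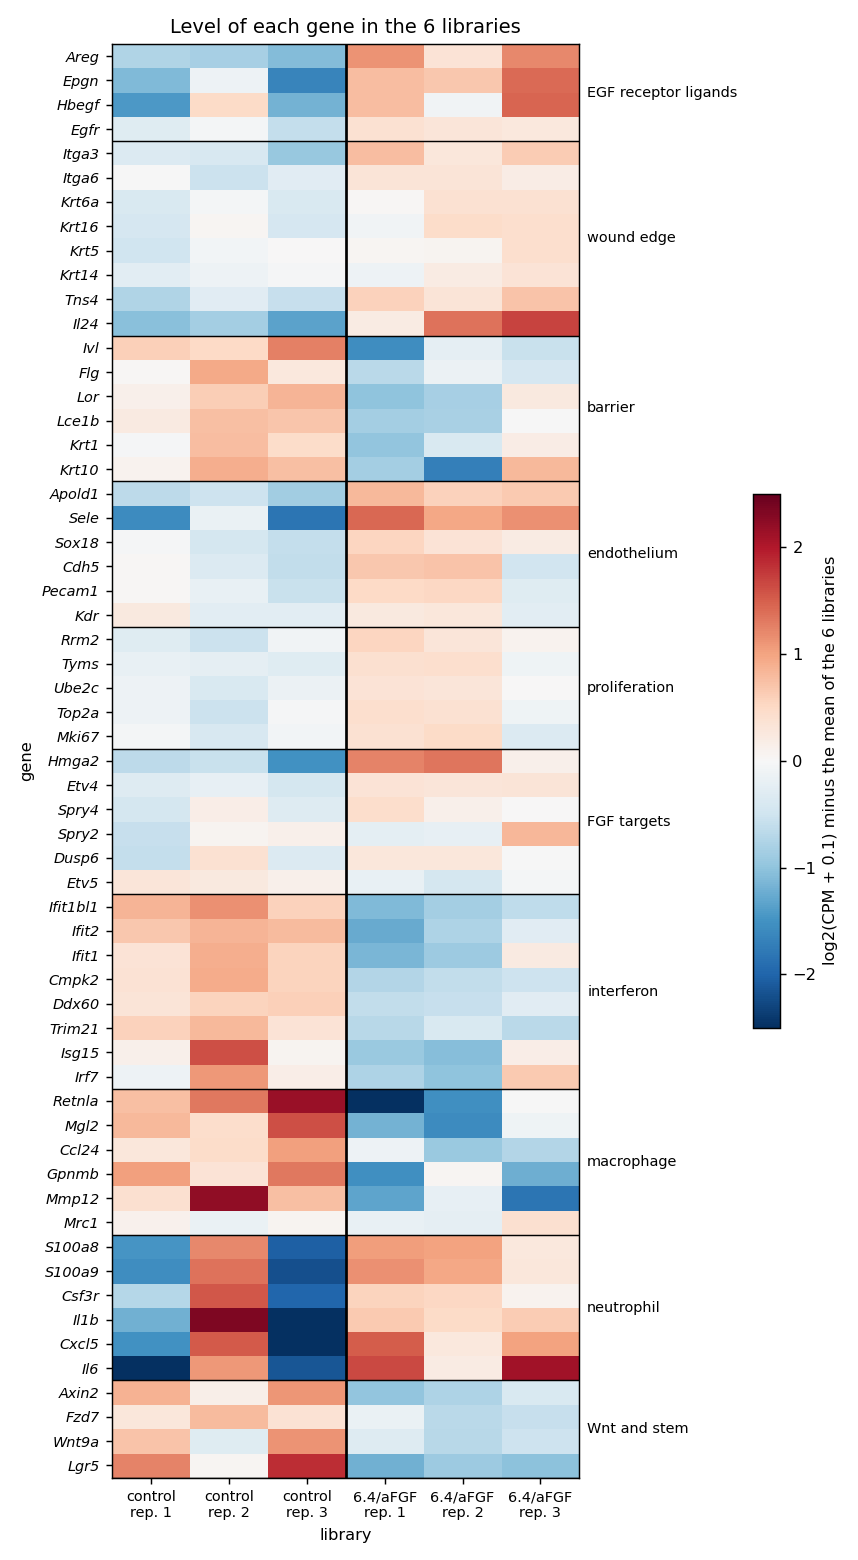
Level of 59 genes in the 6 libraries, as log2(CPM + 0.1) minus the gene's mean over the 6, from blue (below the mean) to red (above it), with the 3 control libraries left of the line and the 3 libraries of 6.4/aFGF right of it. Most ligand, wound edge and interferon genes change colour at the line, while in the neutrophil genes control replicate 2 has the colour of the 6.4/aFGF libraries.

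Vessel genes were nearly all higher in 6.4/aFGF. Of 31 endothelial genes tested, 30 were higher, against 50.1% of all genes, 7 at an unadjusted p under 0.05, against 4.38%, and none in the other direction, with a median of 0.53. Without control replicate 2 there were 10 of 31, against 12.5% of all genes, and the median was 0.52. Sele, the adhesion molecule E-selectin of activated endothelium, measured 4.72, 12.8 and 3.99 CPM in control and 38.9, 28.2 and 31.8 CPM in 6.4/aFGF (2.21 ± 0.48), and Sox18, a transcription factor of growing vessels, measured 53.5, 40.2 and 36.1 CPM and 79.1, 69.3 and 62.9 CPM (0.72 ± 0.18). Both were separated between the groups. Pecam1, the CD31 antigen used to stain vessels, had 233, 201 and 156 CPM in control and 322, 329 and 186 CPM in 6.4/aFGF (0.52 ± 0.26), and Cdh5, the cadherin of endothelial junctions, had 196, 151 and 126 CPM and 307, 314 and 138 CPM (0.70 ± 0.34). In both, replicates 1 and 2 of 6.4/aFGF were above all controls and replicate 3 was among them. Kdr, the main VEGF receptor, differed by 0.20 ± 0.21. Of 20 angiogenic factors 2 had an unadjusted p under 0.05 (9 higher and 2 lower without control replicate 2), both higher: Sema3f and Hgf, the hepatocyte growth factor, at 11.3, 10.7 and 9.20 CPM in control and 14.5, 18.1 and 13.1 CPM in 6.4/aFGF (0.57 ± 0.18). Vegfa ran from 64.8 to 406 CPM in control, the highest value being that of replicate 2, and from 115 to 257 CPM in 6.4/aFGF.

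Contractile and matrix genes of fibroblasts were mostly close between the groups. Acta2, the smooth muscle actin used to stain vessel walls and myofibroblasts, measured 318, 164 and 293 CPM in control and 253, 298 and 215 CPM in 6.4/aFGF, and Tagln, another contractile gene, measured 138, 88.7 and 129 CPM and 109, 127 and 99.3 CPM. The groups overlapped in both. Cnn1, a calponin of contractile cells, differed by -0.63 ± 0.41, and of the 29 genes of this list 1, Mcam, had an unadjusted p under 0.05 and was higher. Col1a1, the main fibrillar collagen gene, had 12508, 11442 and 13053 CPM in control and 14632, 15215 and 9705 CPM in 6.4/aFGF (0.11 ± 0.22). Col3a1 ran from 18537 to 20940.0 CPM in control and from 18127 to 22486 CPM in 6.4/aFGF. Postn, the matrix protein periostin, was lower, at 2206, 1342 and 2068 CPM in control and 916, 1288 and 672 CPM in 6.4/aFGF (-0.95 ± 0.30). Its groups did not overlap, but replicate 2 of each lay close, at 1342 and 1288 CPM. Over 43 collagen and matrix genes, 32 were higher and 11 lower, with a median of 0.15, and an unadjusted p under 0.05 for 3 that were higher, Col4a1, Col4a2 and Lox, and 3 that were lower, Col7a1, Postn and Lum (6 and 7 without control replicate 2).

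In the TGF-beta list 15 of 30 genes were higher and 15 lower, with a median of 0.01. An unadjusted p under 0.05 was found for 4, all higher, against 4.38% of all genes: Ccn2, Fst, Tgfbr3 and Grem1. Without control replicate 2 the median was 0.29, with 12 genes higher and 1 lower at an unadjusted p under 0.05, against 12.5% and 8.69% of all genes. The 20-library fit called 5 higher, against 1.87% of all genes. Ccn2, described above, and Fst, the activin antagonist follistatin, led them. Fst stood at 30.3, 52.4 and 33.3 CPM in control and 97.5, 59.0 and 128 CPM in 6.4/aFGF (1.31 ± 0.35). Of the proteases, Mmp19 had 239, 259 and 177 CPM and 494, 299 and 409 CPM (0.85 ± 0.24), and Adamts1, which cleaves proteoglycans, had 72.4, 146 and 95.1 CPM and 182, 161 and 286 CPM (1.03 ± 0.34). The groups did not overlap in Fst, Mmp19 and Adamts1. Of 26 immediate early genes 21 were higher, 6 at an unadjusted p under 0.05, against 4.38% of all genes, and none in the other direction, including the nuclear receptor Nr4a2 (4.62, 11.0 and 5.31 against 21.3, 11.4 and 30.7 CPM, 1.62 ± 0.49). Without control replicate 2, 12 were higher at this level, against 12.5% of all genes. Fos and Egr1, the usual markers of this class, overlapped fully, with 186 to 331 CPM of Fos in control and 154 to 398 CPM in 6.4/aFGF, and 113 to 209 CPM and 117 to 249 CPM of Egr1.

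Proliferation genes were higher by a small amount. Of 42 cell cycle genes, 39 were higher, 8 at an unadjusted p under 0.05, against 4.38% of all genes, and none in the other direction, with a median of 0.29. Without control replicate 2 this held for 3 of 42, against 12.5% of all genes, and the median was 0.19. Rrm2, which makes deoxynucleotides, had 27.8, 23.7 and 32.3 CPM in control and 49.5, 42.1 and 36.2 CPM in 6.4/aFGF (0.63 ± 0.17). Ube2c (0.46 ± 0.14) and Tyms (0.51 ± 0.16), needed for mitotic exit and thymidylate synthesis, were likewise apart between the groups. Mki67, the Ki-67 antigen, had 81.1, 64.2 and 80.6 CPM and 110.5, 117 and 66.8 CPM (0.40 ± 0.23), and Top2a, the topoisomerase of dividing cells, had 77.0, 58.0 and 82.0 CPM and 113, 109 and 77.4 CPM (0.48 ± 0.20). In both, replicate 3 of 6.4/aFGF lay within the control range.

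**Figure D3:**
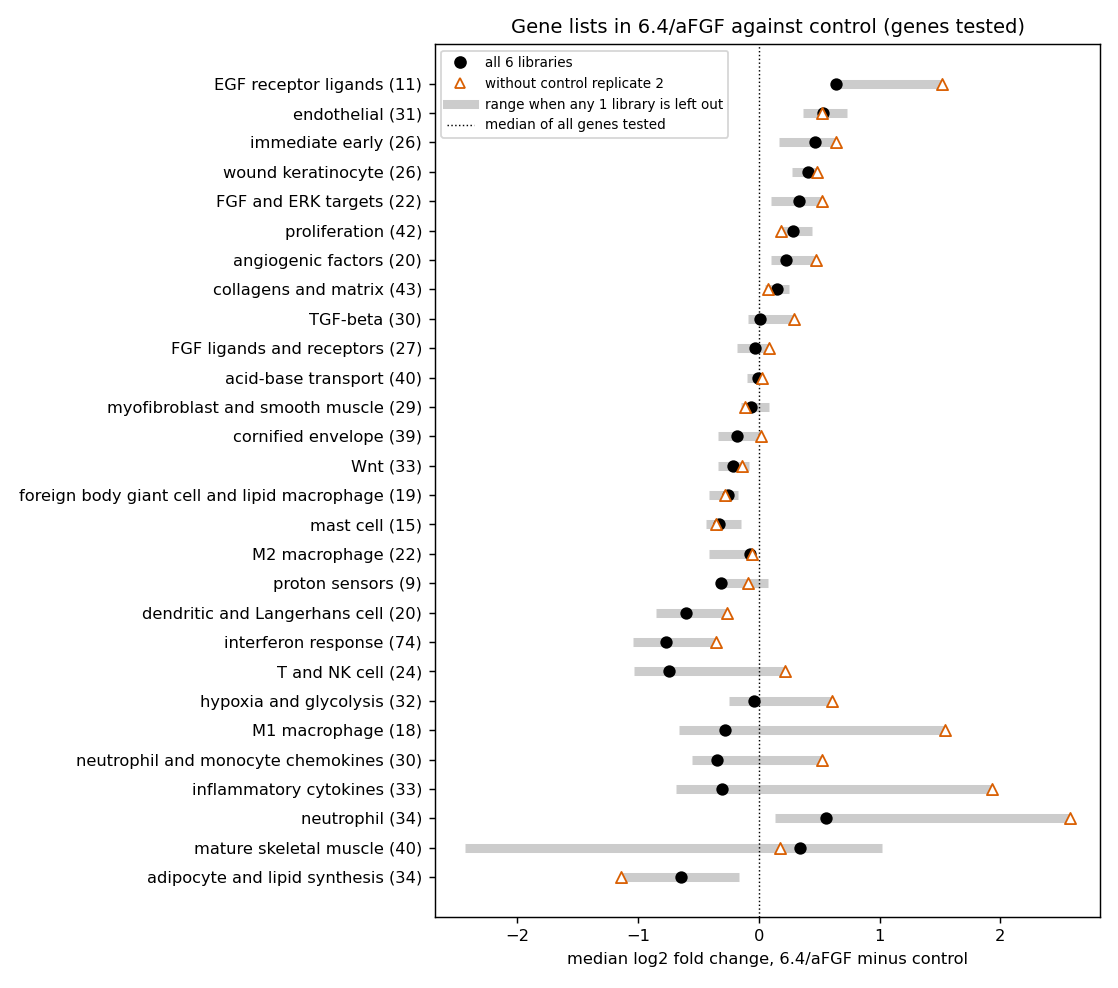
Median log2 fold change of 6.4/aFGF over control for 28 gene lists (number of genes tested in brackets), with all 6 libraries (black), without control replicate 2 (open triangle) and the range over fits that left out any 1 library (grey bar); the dotted line is the median of all genes tested. The endothelial, keratinocyte and proliferation lists stay right of the line and the interferon list left of it, while the neutrophil, cytokine and muscle lists move widely with 1 library.

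Of 74 interferon-inducible genes tested, 72 were lower and 2 higher, Ifi205 and Slfn1, with 18 at an unadjusted p under 0.05 and none in the other direction, against 3.63% of all genes. All 3 libraries of 6.4/aFGF lay below all controls in 23 of the 74, against 7.18% of all genes. The median was -0.77 with all libraries and -0.36 without control replicate 2, the library with the highest mean level of the list. Without it, 24 of the 74 lay below the other 2 controls, against 21.5% of all genes, and 12 were lower and 2 higher at an unadjusted p under 0.05, against 8.69% and 12.5%. The mean log2 CPM of the list was 5.66, 6.61 and 5.55 in control and 4.71, 5.20 and 5.31 in 6.4/aFGF, and 4.47 to 6.93 in the other hydrogel libraries. Ifit1 measured 59.9, 88.5 and 69.6 CPM in control and 21.3, 25.2 and 55.0 CPM in 6.4/aFGF (-1.08 ± 0.39), without overlap. Isg15, a ubiquitin-like protein, had 89.9, 253 and 86.2 CPM and 43.5, 39.3 and 92.8 CPM (-1.27 ± 0.55), and Irf7, the transcription factor that amplifies the response, had 192, 444 and 235 CPM and 122, 104 and 331 CPM (-0.62 ± 0.55). In these 2 genes replicate 3 of 6.4/aFGF lay within the control range. DESeq2 called 7 genes of the list lower, and the 20-library fit called none, with edgeR adjusted p of 0.0587 for Ddx60 and 0.205 for Ifit1bl1.

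Other genes that the study names were also lower in mean than in control. Among the libraries of control and 6.4/aFGF, control replicate 2 was the highest in each. The paper's figure legend for its named genes refers to aFGF hydrogels of pH 6.4 and 7.4. The comparison with control given here is therefore a different one and does not test that result. Gm12185, a gene of the interferon-inducible GTPases, had 1.00, 6.56 and 1.11 CPM in control and 0.415, 0.602 and 0.361 CPM in 6.4/aFGF (-2.63 ± 0.86; -1.18 without control replicate 2), and the groups did not overlap. F830016B08Rik, of the same family, had 6.78, 15.6 and 3.53 CPM and 3.54, 3.87 and 4.55 CPM (-1.10 ± 0.54; -0.35 without it). Oas3, which senses double-stranded RNA, had 54.6, 169.8 and 39.9 CPM and 54.9, 31.3 and 51.1 CPM, and its log2 difference of -0.93 ± 0.58 was -0.03 without control replicate 2. Il15, a cytokine for NK and T cells, had 10.1, 28.1 and 10.4 CPM and 8.74, 8.64 and 8.24 CPM (-0.91 ± 0.43; -0.25 without control replicate 2), and Rnf213, a large ubiquitin ligase, had 313, 445 and 249 CPM and 226, 247 and 237 CPM (-0.49 ± 0.23; -0.23 without it). The 6.4/aFGF libraries were below all controls in Il15 and Rnf213, in Rnf213 by less than 3 CPM from control replicate 3. Tnfsf14, the TNF family ligand LIGHT, had 11.7, 71.7 and 3.88 CPM in control and 19.5, 19.7 and 14.7 CPM in 6.4/aFGF, so that all 3 libraries of 6.4/aFGF lay above control replicates 1 and 3 and below control replicate 2.

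The difference in neutrophil genes turned on 1 control library. Of 34 genes tested, 29 were higher in 6.4/aFGF, none at an unadjusted p under 0.05, and the median of 0.56 was 2.58 without control replicate 2, where 30 of 34 were higher at this level against 12.5% of all genes. S100a8, a subunit of the abundant granulocyte protein calprotectin, measured 436, 2765 and 293 CPM in control and 2489, 2424 and 1441 CPM in 6.4/aFGF (0.87 ± 0.86), and its partner S100a9 measured 513, 3883 and 331 CPM and 3347, 2969.6 and 1844 CPM (0.80 ± 0.93). Csf3r, the G-CSF receptor, had 124, 596 and 51.6 CPM and 302, 290.2 and 215 CPM, and Cxcr2, the chemokine receptor of neutrophils, had 65.0, 404 and 14.1 CPM and 289, 195 and 109 CPM. Control replicates 1 and 3 were below every 6.4/aFGF library in all 4 genes, and control replicate 2 was above the 3 libraries of 6.4/aFGF. Without it the 20-library fit, chosen after the data had been seen, called 14 of the 34 genes higher, against 1.87% of all genes. Among them were S100a8 (edgeR adjusted p = 0.0386) and S100a9 (0.0376). Control replicate 2 had the highest mean level of this list among the controls, so leaving it out raised the difference. These calls are therefore no independent evidence.

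Several cytokine and chemokine genes followed the same split. Il1b, the interleukin 1 beta gene, measured 156, 1805 and 47.9 CPM in control and 564, 497 and 556 CPM in 6.4/aFGF, so that its log2 difference was -0.30 ± 1.19 with all libraries and 2.43 without control replicate 2. Il6 had 6.54, 106 and 11.2 CPM and 156, 57.6 and 215 CPM (1.81 ± 1.12), and Tnf had 3.17, 44.1 and 2.18 CPM and 9.57, 15.8 and 9.07 CPM. Of the chemokines that attract neutrophils, Cxcl1 had 19.1, 154 and 49.8 CPM and 234, 89.7 and 336 CPM (1.59 ± 0.83), Cxcl2 had 52.4, 1016 and 14.1 CPM and 469, 335 and 349 CPM, and Cxcl5 had 101, 839 and 41.8 CPM and 833, 349 and 583 CPM (0.86 ± 1.07). In each of these 6 genes control replicates 1 and 3 were below all 3 libraries of 6.4/aFGF, while control replicate 2 was within or above them. The median of the 33 cytokines was -0.30 with all libraries and 1.93 without control replicate 2. Over the 32 genes of hypoxia and glycolysis it was -0.04 and 0.61, with 0 genes at an unadjusted p under 0.05 with all libraries and 16 higher without that one, against 12.5% of all genes. Il24, an IL-10 family cytokine made by keratinocytes, had 1.21, 1.41 and 0.971 CPM in control and 3.04, 6.83 and 8.66 CPM in 6.4/aFGF (2.38 ± 0.44), and Tslp, an epithelial cytokine of type 2 immunity, had 6.10, 22.9 and 10.6 CPM and 3.18, 2.23 and 4.88 CPM (-1.93 ± 0.56; -1.27 without control replicate 2). The groups did not overlap in Il24 and Tslp.

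**Figure D4:**
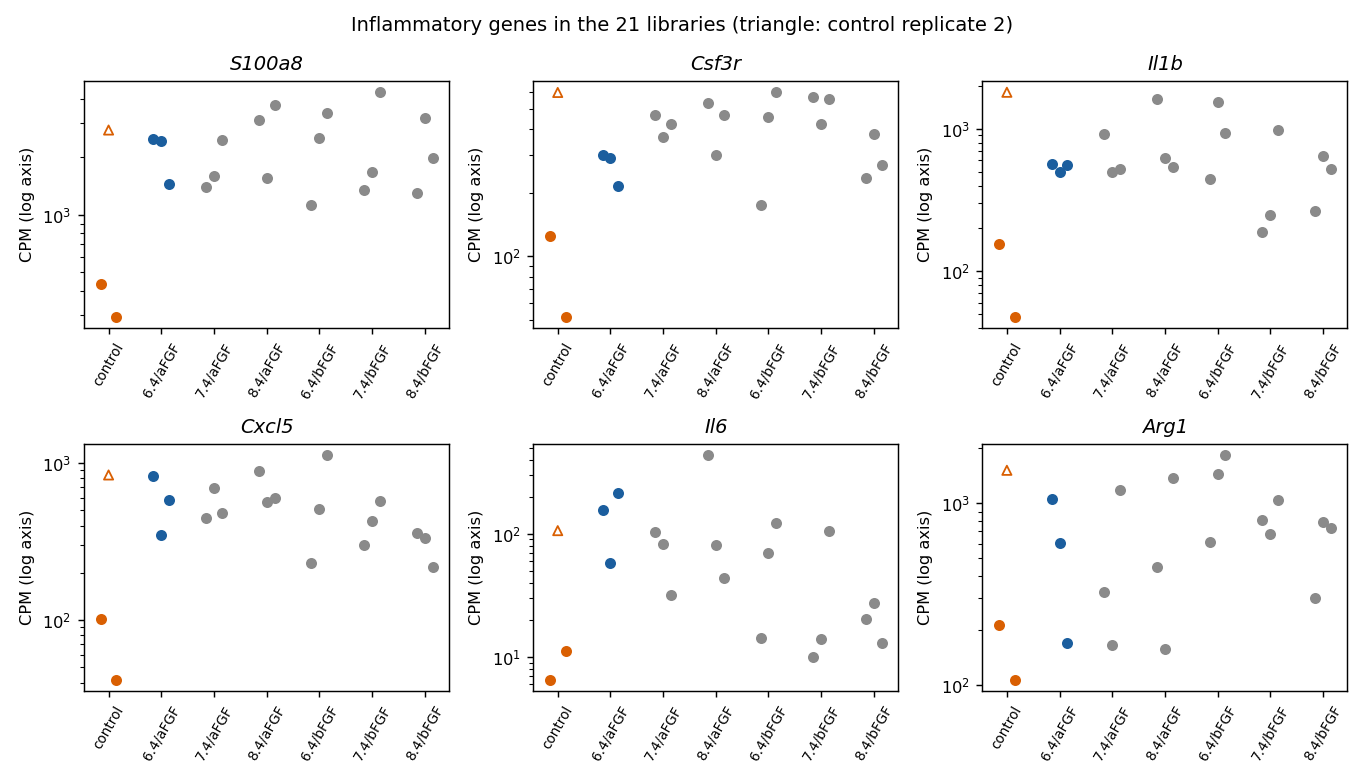
Level in CPM (log axis) of S100a8, Csf3r, Il1b, Cxcl5, Il6 and Arg1 in each of the 21 libraries by group, with control in orange (replicate 2 as an open triangle), 6.4/aFGF in blue and the other hydrogel groups in grey. In the first 5 genes control replicates 1 and 3 are lower than the 3 libraries of 6.4/aFGF, and control replicate 2 lies among the hydrogel libraries or above 6.4/aFGF.

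Of 22 general macrophage genes, 2 were higher and 1 was lower at an unadjusted p under 0.05, with a median of -0.11. The 18 M1 genes, of the inflammatory state, had a median of -0.28, with 1 of them, Il12b, lower at an unadjusted p under 0.05. Their median without control replicate 2 was 1.54, with 10 of 18 higher and 0 lower at this level, and that of the general macrophage genes was 0.03, with 6 of 22 higher and 1 lower. The shares of all genes without that library were 12.5% higher and 8.69% lower. Adgre1, the pan-macrophage antigen F4/80, measured 298, 277 and 372 CPM in control and 192, 202 and 379 CPM in 6.4/aFGF (-0.27 ± 0.30), and Mrc1, the CD206 antigen of M2 macrophages, measured 838, 694 and 815 CPM and 678, 659 and 1021 CPM. The groups overlapped in both, as in Ccr7, the marker of M1 macrophages and mature dendritic cells (12.5, 37.8 and 12.0 against 13.5, 23.1 and 17.5 CPM; log2 difference -0.19 ± 0.50, and 0.57 without control replicate 2). Of 22 M2 genes, 9 were higher and 13 lower, and 4 of those lower had an unadjusted p under 0.05: Ccl24, Mgl2, Retnla and Clec10a. Of those higher, Cd163 and Myc did. The shares of all genes were 3.63% lower and 4.38% higher. Without control replicate 2, 4 of the 22 were higher and 4 lower at this level, with a median of -0.05. Retnla, a secreted product of cells exposed to IL-4 or IL-13, had 76.4, 113 and 203 CPM in control and 7.03, 15.5 and 45.0 CPM in 6.4/aFGF (-2.51 ± 0.74). Mgl2, the lectin CD301b, had 50.8, 38.8 and 88.6 CPM and 12.7, 9.55 and 26.7 CPM (-1.84 ± 0.49), and the eosinophil chemokine Ccl24 had 11.8, 13.4 and 19.9 CPM and 8.91, 5.05 and 5.83 CPM (-1.17 ± 0.31). These 3 genes did not overlap between the groups. The M2 genes Arg1 and Chil3 gave no such separation, with Arg1 at 215, 1517 and 107 CPM and 1051, 601 and 171 CPM and Chil3 at 68.1, 125 and 47.7 CPM and 82.7, 83.5 and 60.4 CPM.

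Genes of foreign body giant cells and lipid-laden macrophages were partly lower, 4 of 19 at an unadjusted p under 0.05, against 3.63% of all genes, and none in the other direction: Mmp12, Gpnmb, Dcstamp and Atp6v0d2. Gpnmb, a glycoprotein of lysosome-rich macrophages, had 218, 135 and 267 CPM in control and 37.0, 110.0 and 46.0 CPM in 6.4/aFGF (-1.67 ± 0.47), and Mmp12, the macrophage elastase, had 82.7, 291 and 106 CPM and 25.2, 54.6 and 17.5 CPM (-2.29 ± 0.64). Dcstamp, needed for the fusion of macrophages, had 1.24, 3.91 and 1.27 CPM and 0.443, 0.890 and 0.694 CPM (-1.64 ± 0.60). All 3 were apart between the groups. The median of the list was -0.25, and -0.28 without control replicate 2.

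Dendritic cell genes were lower in 6.4/aFGF in mean, and for T and NK cell genes a lower mean rested on control replicate 2. Of 20 dendritic and Langerhans cell genes 18 were lower, against 49.9% of all genes, with a median of -0.61. An unadjusted p under 0.05 was found for 2 of those lower, Ciita and Itgax, against 3.63% of all genes. The median was -0.26 when control replicate 2 was left out, and 2 of 20 were lower at this level, against 8.69% of all genes. Of 24 T and NK cell genes 23 were lower, 2 at an unadjusted p under 0.05, Cd28 and Ncr1, with a median of -0.74. Leaving out control replicate 2 gave a median of 0.22, with 14 of 24 genes higher. At an unadjusted p under 0.05 were then 1 higher and 1 lower. Cd28, the costimulatory receptor of T cells, had 3.83, 4.32 and 3.86 CPM in control and 0.692, 1.44 and 1.67 CPM in 6.4/aFGF (-1.64 ± 0.38), while Cd3e, a part of the T cell receptor, had 0.369, 3.83 and 1.13 CPM and 0.913, 0.812 and 2.00 CPM. Cd28 was separated between the groups and Cd3e was not. Mast cell genes had a median of -0.33 over 15 genes, 2 of them lower at an unadjusted p under 0.05, Cpa3 and Mrgprb1. Epx, the eosinophil peroxidase, had 1 count in control replicate 1 and 0 in the other 5 libraries, which allows up to 3 counts in each, and was not tested.

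Wnt pathway and hair follicle genes were mostly lower in mean. Of 33 Wnt genes, 23 were lower, 7 at an unadjusted p under 0.05, against 3.63% of all genes, and none in the other direction. The median was -0.22, and -0.14 without control replicate 2. Axin2, the feedback target that reports Wnt signalling, had 14.9, 9.00 and 17.6 CPM in control and 4.04, 4.74 and 6.24 CPM in 6.4/aFGF (-1.44 ± 0.31), and the receptor Fzd7 had 38.1, 53.7 and 40.4 CPM and 27.8, 19.4 and 20.8 CPM (-0.94 ± 0.20). Both were apart between the groups, as was Lgr5, a Wnt target and marker of follicle stem cells, at 8.37, 3.62 and 12.8 CPM and 1.47, 1.81 and 1.67 CPM (-2.31 ± 0.47). Wnt9a, a ligand, had 13.6, 6.70 and 18.2 CPM and 6.67, 5.10 and 5.77 CPM (-1.11 ± 0.37), with its groups apart by little. Of 13 hair follicle genes tested 12 were lower, 2 at an unadjusted p under 0.05, Lgr5 and Shh. All 3 defining follicle markers had 0 counts in at least 1 library, so these markers were at their floor.

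Genes of the tissue around the wound varied widely between libraries. The summed level of 40 genes of mature skeletal muscle, the layer under the skin, was 4278, 5419 and 13487 CPM in control and 1758, 1616 and 25519 CPM in 6.4/aFGF, highest in replicate 3, and 0 of its genes had an unadjusted p under 0.05. Its median ran from -2.44 to 1.02 when each library was left out in turn. The summed level of 34 adipocyte genes was 34024, 3919.8 and 17416 CPM in control and 14849, 13858 and 6027 CPM in 6.4/aFGF, lowest in control replicate 2, with a median of -0.64 and 0 genes at an unadjusted p under 0.05. Without that library the median was -1.14, and 15 of 34 genes were lower at an unadjusted p under 0.05, against 8.69% of all genes. The defining markers of both tissues were above 0 in each library. The part of these tissues in the differences described here was not tested.

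The other hydrogel groups show which of these differences were shared. In the fit of all 21 libraries with a mean per group, 6.4/aFGF was compared with the average of the other 5 hydrogel groups, and 0 of 15811 genes (0%) were called, with a smallest adjusted p of 0.193. At an unadjusted p under 0.05 there were 760 genes (4.81%), 392 higher (2.48%) and 368 lower (2.33%). DESeq2 called 6 genes. Of the 12 leading genes that were higher against control, 8 also had an unadjusted p under 0.05 against the other hydrogels in the same direction, and of the 12 that were lower, 3 did. The 2 comparisons share the 6.4/aFGF libraries, so these counts are no independent evidence.

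Areg was 1.34 log2 units higher in 6.4/aFGF than in the other hydrogels, whose libraries had 4.97 to 38.4 CPM (median 8.51). Tns4 was 0.66 higher, with 16.0 to 66.4 CPM (median 30.5) in the others. Alkal2 (1.69), Has3 (0.94), Irs2 (0.68), Aqp3 (0.68), Ly6m (0.71) and Ccn2 (0.59) were the remaining ones, and the range of the other 15 libraries reached above the highest 6.4/aFGF library in each of these 8 genes. The average of the other groups joins aFGF and bFGF hydrogels. In Areg, Tns4, Has3 and Aqp3 every library with aFGF at pH 7.4 or 8.4 lay above every bFGF library. Aqp3 had 130 to 243 CPM in the former, 26.4 to 77.2 CPM with bFGF and 51.9 to 72.7 CPM in control. Has3 had 13.0 to 31.6, 4.75 to 12.2 and 5.33 to 9.26 CPM. In Alkal2, Irs2, Ly6m and Ccn2 the libraries with aFGF and bFGF overlapped. Fkbp5 was high in all hydrogel groups, with 86.6 to 397 CPM (median 215) in the other hydrogels, all 15 above the highest control, and a log2 difference of 0.19 from 6.4/aFGF.

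Several of the genes that were lower than in control were also below it in the other hydrogel groups. Col7a1 had 25.6 to 77.4 CPM (median 39.3) in the other hydrogels, 15 of 15 libraries below the lowest control, and differed from 6.4/aFGF by -0.03. Retnla had 2.67 to 67.2 CPM (median 16.1) and Mgl2 3.45 to 28.9 CPM (median 19.1), again 15 of 15 below the lowest control, and so did Gpnmb with 34.5 to 115 CPM (median 67.2) and Megf6 with 4.26 to 23.5 CPM (median 11.8). In the other direction, Hmga2 (4.26 to 16.0 CPM (median 8.94)) and Il24 (1.52 to 8.22 CPM (median 3.11)) were above the highest control in 15 of 15 libraries. For Hmga2 the difference from 6.4/aFGF was -0.06. Against the other hydrogels the interferon list had a median of -0.17 and 1 of 74 genes at an unadjusted p under 0.05, Trim21. The endothelial list had a median of 0.19 and 1 of 31 genes, Sele. Mmp12 was -1.19 against the other hydrogels, with 14.4 to 345 CPM (median 91.7), and Fzd7 was -0.62, with 17.1 to 47.5 CPM (median 34.8).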

How the data were processed

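RNA of mouse wound tissue was extracted with TRIzol and made into libraries with the TruSeq Stranded mRNA kit, per the labels. The authors deposited whole-number read counts per gene for each of the 21 libraries, without normalization, and FPKM values per gene computed from them. The processing notes of the submitters name the genome build GRCm39. The aligner, counter, annotation and strand setting are not given in the sources used here. A RefSeq table of another build held 18662 of the 18806 gene symbols (99.2%) and was used for names only, and no sequences or coordinates are given.

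The counts of the 6 libraries were compared by the quasi-likelihood test of edgeR 4.0.16, run in R 4.3.3, after TMM scaling and filterByExpr by group. A call needed a log2 fold change beyond 0.58 and a p under 0.05 after Benjamini-Hochberg adjustment, and log2 CPM used a prior count of 2. Alternatives were DESeq2 1.42.0, RLE and upper quartile scaling, other filters, robust dispersion, a block for the replicate number, fits of all 21 libraries, no fold limit, limma 3.58.1 on log2(FPKM + 1) or log2(FPKM + 0.1), and leaving out each library. Tests were tried on simulated counts, and figures were drawn with matplotlib 3.10.9. Replicates differed by far more than counting noise. The numbers of the replicates were not taken to pair the samples, and the labels do not say whether they do.

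The text names the 12 genes of smallest p in each direction with a mean of at least 1 CPM and no overlap between the groups, genes of the study's stains and text, genes of the FGF pathway, and, for each gene list, its defining markers and the 3 members of smallest p. Of the genes so chosen, 2 are not reported here. The members and the 47 lists were chosen with earlier results of these data known. Each library may hold 1 mouse or more, and libraries of a group may share a mouse, since each mouse had a wound on both sides of the back. The labels do not say whether the 3 libraries of a group come from 3 mice. The p-values therefore measure the spread between these libraries only. Intervals and floors of counts cover counting error only.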

Additional observations from a re-analysis of the deposited data

How the results depend on the processing

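For 6.4/aFGF against control, edgeR called 0 genes with RLE or upper quartile scaling, with no filter, with at least 10 counts in every library, with robust dispersion, with no fold limit and with the replicate number as a block (976 genes at an unadjusted p under 0.05), as did limma on FPKM under all 3 settings. DESeq2 called 106 genes with default settings and 100 without Cook's cutoff and independent filtering. The fit of all 21 libraries called 3, Camsap2 and Tns4 higher and Ovca2 lower. Leaving out a library gave 0 calls in each fit of the remaining 5 (589 to 3256 genes at an unadjusted p under 0.05, the most without control replicate 2), 0 to 448 calls in the fits of the other 20 libraries and 45 to 1571 with DESeq2. The 448 and the 1571 came without control replicate 2, and without 6.4/aFGF replicate 3 these fits called 3 and 545. DESeq2 called 54 genes without control replicate 1, 45 without control replicate 3, 57 without 6.4/aFGF replicate 1 and 115 without 6.4/aFGF replicate 2. The cause of these differences was not tested. The fits of 20 libraries and of DESeq2 without a library were chosen after the data had been seen.

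Against the other 5 hydrogel groups, DESeq2 called 6 genes in both settings, and edgeR called 0 under every setting tried (640 to 884 genes at an unadjusted p under 0.05 when a 6.4/aFGF library was left out). The block with the replicate number changed no call of either comparison. Deviations of libraries with the same number correlated at 0.203, -0.13 and 0.365 over 12970 genes, in both directions. The numbers were not taken to pair samples, and a pairing is not excluded.

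Of the 96 genes followed, 93 kept their direction in each alternative. When 1 library was left out, the log2 difference of Ccr7 ran from -0.47 to 0.57 (without control replicate 2), that of Spry2 from -0.12 (without 6.4/aFGF replicate 3) to 0.51, and that of Il1b from -0.85 to 2.43 (without control replicate 2). In addition, the log2 difference of Il1b was 1.38 with the block, 1.13 and 1.14 with limma on log2(FPKM + 1) and log2(FPKM + 0.1), and 1.13 without the filter. Of 47 lists, 22 had a median that changed sign in at least 1 alternative. Other scalings moved the median of all genes by at most -0.0707.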

Other observations

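The following lists were written after the values of single genes had been seen, and are given as values only. Of 30 genes that respond to glucocorticoids, 27 were higher in 6.4/aFGF than in control, with a median log2 difference of 0.80 and of 0.89 without control replicate 2. At an unadjusted p under 0.05 were 11 higher and 1 lower, against 4.38% and 3.63% of all genes. All 3 libraries of 6.4/aFGF lay above all controls in 10 of them, against 7.23% of all genes. Fkbp5, Per1 and Irs2, which drew attention to this list, belong to it, so its counts beside the shares of all genes are no test. The mean log2 CPM of the list was 5.55, 5.75 and 5.44 in control, 6.27, 6.22 and 6.42 in 6.4/aFGF and 5.41 to 6.83 in the other hydrogel libraries, so the levels of 6.4/aFGF lay inside the range of the other hydrogels and outside that of the controls. Of 19 circadian clock genes, 9 were higher and 10 lower, with Per1 and Arntl higher and Per3, Tef, Bhlhe41 and Dbp lower at an unadjusted p under 0.05. The labels give no hour of the day at which tissue was taken.

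Antimicrobial genes of the epidermis and of granulocytes had a median of 0.50 over 19 genes and of 1.55 without control replicate 2, and 2 of them, Defb4 and Reg3g, were higher at an unadjusted p under 0.05. Complement genes had a median of 0.0011 over 22 genes, with 11 higher and 11 lower. The keratins of other epithelia, sebaceous gland, melanocyte, Schwann cell and red blood cell lists held at most 2 genes at an unadjusted p under 0.05 in any direction. Of genes found in cartilage and bone, liver, or ovary and oviduct, which do not belong to skin, none had an unadjusted p under 0.05.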
